A study of Drosophila melanogaster with 3 samples.

Results

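The genes described here encode the subunits of the oxidative phosphorylation chain of Drosophila melanogaster and the copies of them that carry a paralog suffix. They were taken from the Ensembl annotation as protein-coding genes of the nuclear arms whose symbols begin with ND- (complex I), Sdh followed by A to D (complex II), UQCR- (complex III), COX followed by a digit (complex IV) or ATPsyn (complex V). This rule found 87 genes among 13968 protein-coding genes, of which 63 have no paralog suffix and 24 end in L, L1 or L2. No assembly factor matched the rule.

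The DNA bound by slouch (slou), a homeodomain transcription factor of the NK class, was recovered by ChIP-seq with an antibody to GFP. All 3 samples were biological replicates of 1 group: whole embryos of both sexes, collected between 0 and 24 h, from the transgenic line slou-GFP, which makes slou with eGFP joined to its C terminus. No control library is among the samples, though a control alignment was used to call the peaks, per the deposited notes, so the comparisons are among genes and among replicates. Whole embryos pool all tissues and stages, so the lists cannot say in which cells a site was bound, and slou was followed through a tagged transgene copy.

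Oxidative phosphorylation is the chain of inner-membrane complexes that passes electrons from NADH and succinate to oxygen and uses the resulting proton gradient to make ATP. Complex I oxidises NADH, complex II oxidises succinate and is shared with the citrate cycle, complex III passes electrons to cytochrome c, complex IV reduces oxygen, and complex V is the ATP synthase. Some of the core subunits of complexes I, III, IV and V are encoded in mitochondrial DNA, and all of complex II in the nucleus. Most nuclear subunit genes without a paralog suffix are used in nearly every cell. Slou is known for its part in giving identity to a subset of embryonic muscles.

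A gene was called bound when the summit of a peak in the optimal list lay in its body or up to 1 kb upstream. The optimal list is identical to the highest-scoring 9.14% of the 30000 peaks in the list called on the pooled replicates. A score here is the authors' own value for a peak, on a scale no source used here states, and it served only to rank peaks within a list. Rank 1 is the highest score.

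The DNA at 7 bound genes is shown because it holds the summits that carry the results, with at least 1 gene from complexes I, II, IV and V. Each run reads 5′ to 3′ on the strand of the named gene, from the RefSeq Release 6 genome (dm6), and the 21 capitals are centred on the summit. For ND-51, COX5B and ATPsynCF6 the run is the whole stretch between the start of a divergent neighbour, at its left end, and the start of the gene itself, at its right end. The other runs reach 50 bases to each side of the summit. Their coordinates are chrX:6679303-6679403 for ND-ASHI, chr2L:6062758-6062988 for ND-51, chr3R:11210037-11210137 for SdhC and chr2L:6557503-6557799 for COX5B. COX8 lies at chr3L:21539455-21539555, ATPsynCF6 at chr3R:23356065-23356277 and ATPsynC at chr3R:31219683-31219783. UQCR-14 of complex III is not printed because its summit lies in an exon. COX5B is on the plus strand and the other 6 are on the minus strand.
ND-ASHI: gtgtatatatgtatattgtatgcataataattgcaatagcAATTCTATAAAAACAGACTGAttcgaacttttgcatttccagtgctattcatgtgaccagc
ND-51: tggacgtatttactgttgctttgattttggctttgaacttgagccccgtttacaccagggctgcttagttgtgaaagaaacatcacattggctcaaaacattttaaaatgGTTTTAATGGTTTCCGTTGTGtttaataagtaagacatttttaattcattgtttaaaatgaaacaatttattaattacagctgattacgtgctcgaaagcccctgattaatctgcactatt
SdhC: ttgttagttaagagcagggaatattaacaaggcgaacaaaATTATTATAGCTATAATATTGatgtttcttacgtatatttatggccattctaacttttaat
COX5B: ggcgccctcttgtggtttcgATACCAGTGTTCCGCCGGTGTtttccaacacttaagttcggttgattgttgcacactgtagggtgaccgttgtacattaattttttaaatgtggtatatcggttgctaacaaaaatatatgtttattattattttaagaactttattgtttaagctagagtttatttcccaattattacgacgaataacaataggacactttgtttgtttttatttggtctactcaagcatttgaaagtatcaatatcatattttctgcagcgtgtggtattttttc
COX8: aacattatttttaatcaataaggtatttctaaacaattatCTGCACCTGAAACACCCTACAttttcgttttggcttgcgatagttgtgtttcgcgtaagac
ATPsynCF6: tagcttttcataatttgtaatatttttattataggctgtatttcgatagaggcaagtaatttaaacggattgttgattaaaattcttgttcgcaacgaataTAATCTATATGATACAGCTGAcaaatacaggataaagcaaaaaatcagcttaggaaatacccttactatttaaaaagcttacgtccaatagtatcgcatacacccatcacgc
ATPsynC: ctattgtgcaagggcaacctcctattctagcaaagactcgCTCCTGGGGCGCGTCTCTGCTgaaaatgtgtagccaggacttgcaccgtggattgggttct

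Of the 87 genes, 19 were bound, or 21.8% (95% Wilson interval 14.5 to 31.6), against 19.7% of all protein-coding genes. The share of the family as a whole is therefore near the background. The bound genes were almost all subunits without a paralog suffix, where 18 of 63 were bound, or 28.6% (18.9 to 40.7). Among the paralogs 1 of 24 was bound, or 4.17% (0.739 to 20.2), and that gene was COX7AL2. The interval of the subunits reaches down to just below the background share, and that of the paralogs reaches up to just above it.

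The family's genes are short. The window, body plus upstream part, had a median length of 2100 bp in the 87 genes and 3164 bp over all protein-coding genes. The median was 2178 bp in the subunits and 1744 bp in the paralogs. Among genes with a window of up to 3000 bp, 17 of 69 members (24.6%) and 17 of 51 subunits (33.3%) were bound, against 11.4% of all protein-coding genes of that size. This limit on length was added after the data were seen. Counting only summits within 500 bp of a start site, 18 of the 87 genes (20.7%) had one, against 15.1% of all protein-coding genes.

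Each replicate's own list was shortened to the length of the optimal list, which is called its top list here. Replicates 1, 2 and 3 held a summit in 14, 17 and 17 of the 87 genes, beside 19 in the optimal list. Their mean was 16 ± 1.73 (SD, n = 3). The members' shares were 16.1%, 19.5% and 19.5%, against 19.1%, 19.9% and 19.3% of all protein-coding genes in the same lists. The members were thus below all genes in replicate 1 and near them in replicates 2 and 3. Of the 87 genes, 11 were present in all 3 replicates, 5 in exactly 2, 5 in exactly 1 and 66 in none. No such split over all protein-coding genes is given here. Optimal peaks that overlapped a top-list peak in all 3 replicates gave 12.6% of members bound, against 13% of all protein-coding genes.

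**Figure D1:**
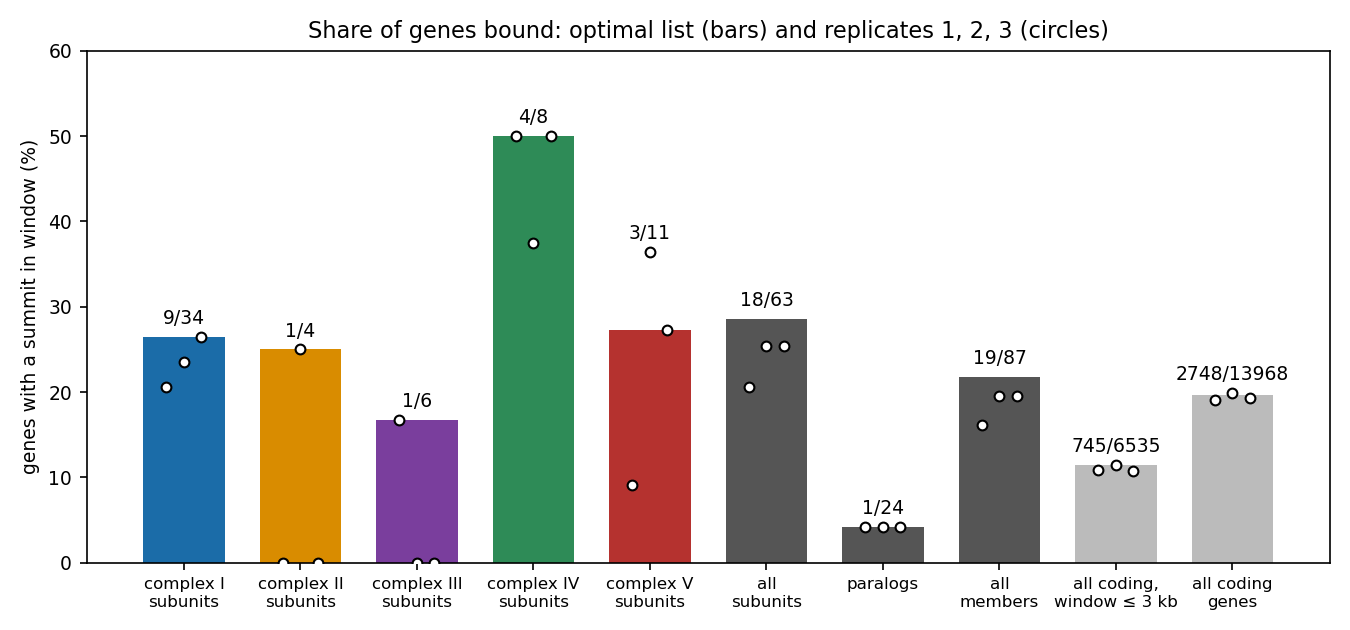
Share of genes (%, y axis) with a peak summit in the body or 1 kb upstream, for subunits of complexes I to V, all subunits, the paralogs, all 87 members and 2 sets of protein-coding genes. Bars show the optimal list, circles show replicates 1, 2 and 3 from left to right, and the labels give bound genes over all genes. Subunits stand at 28.6%, paralogs at 4.17% and all protein-coding genes at 19.7%.

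By complex, the subunits without a paralog suffix were bound in 9 of 34 cases in complex I (26.5%) and 1 of 4 in complex II (25%). Complex III had 1 of 6 (16.7%), complex IV 4 of 8 (50%) and complex V 3 of 11 (27.3%). The share of all protein-coding genes was 19.7%. The Wilson intervals overlap widely, from 14.6 to 43.1% for complex I and from 21.5 to 78.5% for complex IV. Complex V varied most between replicates, with 1, 4 and 3 of its genes in the lists of replicates 1, 2 and 3. The complexes are therefore not separated by these counts.

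Complex I, the NADH dehydrogenase, holds the 3 best-ranked genes of the family. ND-ASHI, an accessory subunit of the membrane arm, ranked 354 of the pooled list with a score of 255. Its ranks in replicates 1, 2 and 3 were 375, 415 and 372, so the libraries placed it almost alike. The summit lay 235 bp upstream of its nearest start and 287 bp upstream of the nearest start of its divergent neighbour Fum1. Fum1 encodes fumarase of the citrate cycle. Both genes have several annotated starts, the closest 2 being 164 bp apart, and the summit falls in an intron of Fum1. The same peak is thus counted for a gene of each pathway.

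ND-MWFE, a small accessory subunit of complex I, ranked 384 in the pooled list with a score of 245. Its replicate ranks were 529, 327 and 407. The summit was 162 bp upstream of ND-MWFE and lay in an intron of the divergent gene TppII, a peptidase gene. It was nearer to TppII, 59 bp upstream of the nearest of its annotated starts, an internal one. ND-51 encodes the subunit that binds NADH and FMN. It ranked 423 with a score of 235 and had replicate ranks of 579, 428 and 512. Its summit sits 111 bp from ND-51 and 121 bp from CG13994, nearly in the middle of the 231 bp printed above.

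ND-24, which encodes the iron-sulfur partner of ND-51, ranked 770, with 958, 810 and 844 in the replicates and the summit 87 bp downstream of its start. The same summit lay 129 bp upstream of the divergent gene corolla and in its window. ND-51 and ND-24 are the NADH-oxidising pair of complex I, and they were the bound ones among its 7 nuclear core subunits. The other core genes, ND-75, ND-49, ND-30, ND-23 and ND-20, were unbound, at pooled ranks from 5861 (ND-30) to 11052 (ND-75). The core share was 28.6% (2 of 7, interval 8.22 to 64.1). Accessory subunits were bound in 7 of 27 cases (25.9%), and all protein-coding genes in 19.7%. The core interval covers both of these shares, so the core genes are not set apart.

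The other accessory genes of complex I were ranked lower and less evenly. ND-42 ranked 946, with 1033, 687 and 1067 in the replicates, and was the only bound member with more than 1 optimal summit in its window. Its best summit lay 59 bp inside Cchl, a divergent gene for the enzyme that attaches haem to cytochrome c, and 288 bp upstream of ND-42. ND-SGDH ranked 982, but its replicate ranks spread over 2018, 464 and 1430. ND-B17 at 1995 and ND-MNLL at 2040 were outside the top list of replicate 1, at 3282 and 3839. ND-B22 at 2641 was inside it in replicate 1 alone, at rank 1351, against 3422 in replicate 2 and 8209 in replicate 3.

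In complex II the bound gene was SdhC, one of the pair of membrane anchors. SdhC ranked 2656 with a score of 93.8, close to the lowest score of the optimal list, 92, and its replicate ranks were 3580, 2112 and 4000. Its summit lay 238 bp upstream of SdhC and 160 bp upstream of the divergent gene Tctp. SdhA, the flavoprotein that oxidises succinate, had its best peak at rank 4441 (score 68.7), with 4585, 10793 and 8070 in the replicates and the summit 46 bp into the gene. SdhD, the other anchor, had its best peak at 5612 (score 60.1), 55 bp upstream, with 8225, 11724 and 4310. Both were outside the top list of every replicate.

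Complex III, the cytochrome bc1 complex, had 1 bound gene that matched the rule. UQCR-14, a small subunit of this complex, ranked 2595 with a score of 95.2, and its summit lay 4 bp downstream of its start. Its replicate ranks were 2123, 9528 and 2833, so only replicate 1 placed it inside its top list. The next genes, UQCR-6.4 at rank 4093 (score 72) and UQCR-11 at 6239 (score 56.8), were unbound. UQCR-6.4 had replicate ranks of 7934, 4218 and 4422 for a summit 619 bp upstream, which lay 59 bp from the start of Rab4. UQCR-11 had 8272, 5429 and 15206 for a summit 115 bp upstream. The core subunit gene UQCR-C1 had no summit of the pooled list at all, and UQCR-C2 ranked 11158.

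Complex IV, cytochrome c oxidase, had 4 bound subunits and the bound paralog. COX5B ranked 569 with a score of 203, and 904, 541 and 547 in the replicates. Its summit was 267 bp upstream of COX5B but 31 bp upstream of IFT52, a gene of ciliary transport, which starts at the other end of the 297 bp printed above. COX8 ranked 1169 with a score of 147, and 967, 1575 and 1602 in the replicates. It lay 58 bp upstream of COX8 and 357 bp from VhaM9.7-b, a gene for a subunit of the vacuolar proton pump.

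COX5A at 1720 and COX7B at 1761 followed. COX5A had replicate ranks of 1181, 2382 and 1638, all within the top lists. COX7B had 2367, 2919 and 1539 and so missed it in replicate 2. COX6B, the best-ranked unbound gene of complex IV, was at 3626 (score 77.6), with 4851, 4541 and 4746 in the replicates. COX4 ranked 24588.

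COX7AL2, with a window of 6388 bp against a median of 1744 bp in the paralogs, was the exception among them. It ranked 1072 with a score of 154, and 1293, 1349 and 822 in the replicates, so it was in the top list of each. Its summit lay 571 bp downstream of its nearest start, in a 5′ UTR, and it was the bound member whose summit was more than 500 bp from its own start. COX7A, its counterpart without the suffix, had its best peak at 14491.

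Complex V had 3 bound genes, none of them for the catalytic head or the central stalk. ATPsynCF6, a part of the peripheral stalk, ranked 1613 with a score of 125, and 2725, 1668 and 1621 in the replicates. Its summit was 102 bp upstream of ATPsynCF6 and 112 bp upstream of Sec13, almost midway in the printed stretch of 213 bp. ATPsynE, a small subunit of the membrane part, ranked 1831 with a score of 117, and 3440, 1140 and 2492 in the replicates, with its summit 31 bp downstream of the start. ATPsynC, which encodes the subunit of the rotating proton ring, ranked 2483 with a score of 97.6. Its replicate ranks of 5292, 2710 and 1265 were spread more widely than those of ATPsynCF6, and its summit lay 103 bp upstream.

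ATPsynbeta, ATPsyngamma and ATPsyndelta, which belong to the catalytic head and central stalk, were unbound at 4565, 6191 and 15613. The alpha subunit of the head, encoded by blw and outside the naming rule, was bound at rank 610, with 671, 601 and 714 in the replicates.

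**Figure D2:**
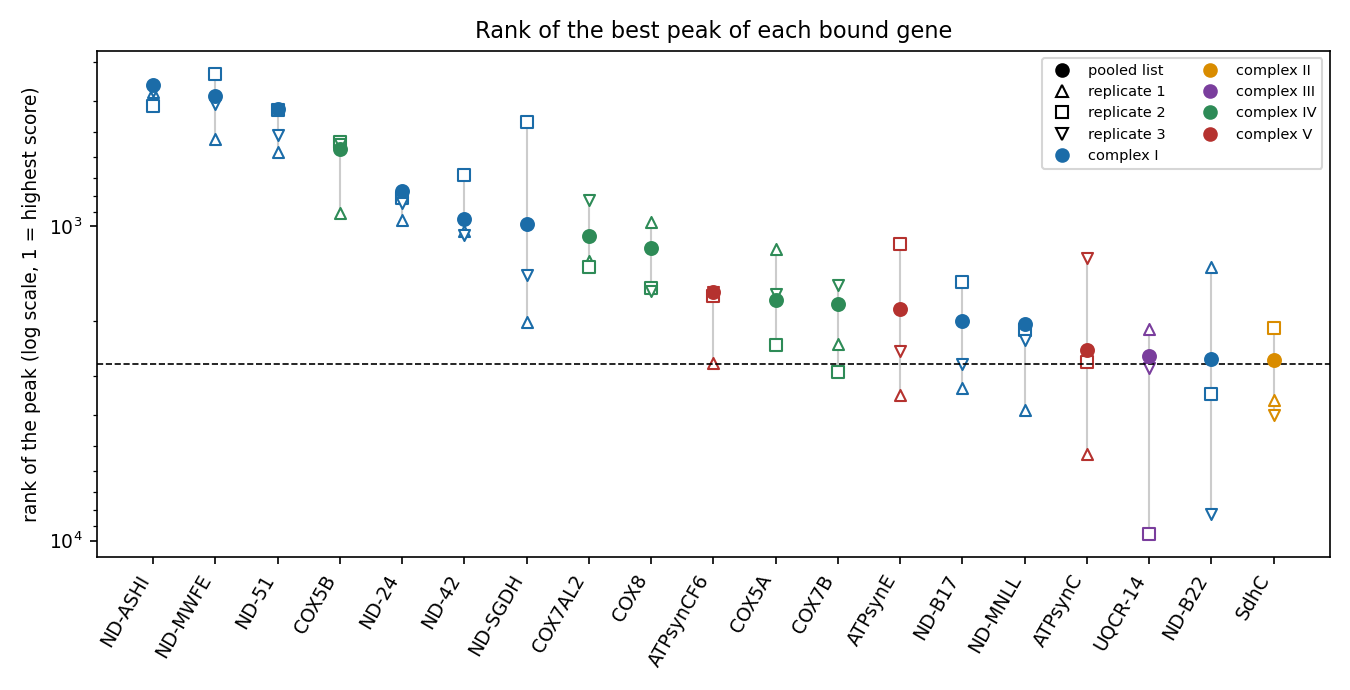
Rank (y axis, log scale, 1 at the top) of the best peak of the 19 bound genes in the pooled list (filled circles) and in replicates 1, 2 and 3 (open symbols), coloured by complex. The dashed line marks the length of the optimal list. ND-ASHI lies between 354 and 415 in every list, while UQCR-14 lies between 2123 and 9528.

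The members were spread over the whole optimal list, with 4, 5, 6 and 4 of their best peaks in 4 equal ranges of rank from highest to lowest score. Their median rank was 1613 and their median score 125, against 1136 and 149.8 over the best peaks of all bound protein-coding genes. The best peak overlapped a peak of the top list of all 3 replicates in 11 of 19 members (57.9%), against 66% of all bound genes. Each of the 19 was overlapped in at least 1 replicate, in 14, 16 and 16 cases in replicates 1, 2 and 3. The optimal peaks were selected on these same replicates, so a match is partly built in.

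The members nearest the threshold have close scores, apart from the last. Just inside it lie UQCR-14, ND-B22 and SdhC, with scores of 95.2, 94 and 93.8. Just outside lie ND-39 at rank 2761, ATPsynB at 2841 and COX6B at 3626, with scores of 91.6, 90.1 and 77.6, so COX6B is well below the other two. ND-39, an accessory subunit of complex I, had replicate ranks of 4452, 5680 and 1956 for a summit 1490 bp downstream of its start and 82 bp upstream of ZnT77C. ATPsynB, of the peripheral stalk, had 5648, 2023 and 3678 for a summit 52 bp upstream. Of the unbound members, these were the ones with a summit in the top list of any replicate, ND-39 in replicate 3 and ATPsynB in replicate 2.

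Unbound members mostly had a weaker peak. Among the 68 unbound genes, 47 had a summit of the pooled list in the window, 35 of these within 500 bp of their own start. Their median rank was 10406, and 25 of them had a rank above 10000. Counting any pooled summit, 56 of 63 subunits (88.9%) and 10 of 24 paralogs (41.7%) had one, against 63.2% of all protein-coding genes. Among genes with a window of up to 3000 bp the shares were 45 of 51 subunits (88.2%) and 47.3% of all protein-coding genes, and the paralogs, with a median window of 1744 bp, lay near that second share. The pooled list was deposited to hold background as well as signal, so a summit in it is not a call. The subunits with none were ND-AGGG, ND-B14, ND-B14.7, ND-B16.6, ND-B17.2, ND-PDSW and UQCR-C1.

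**Figure D3:**
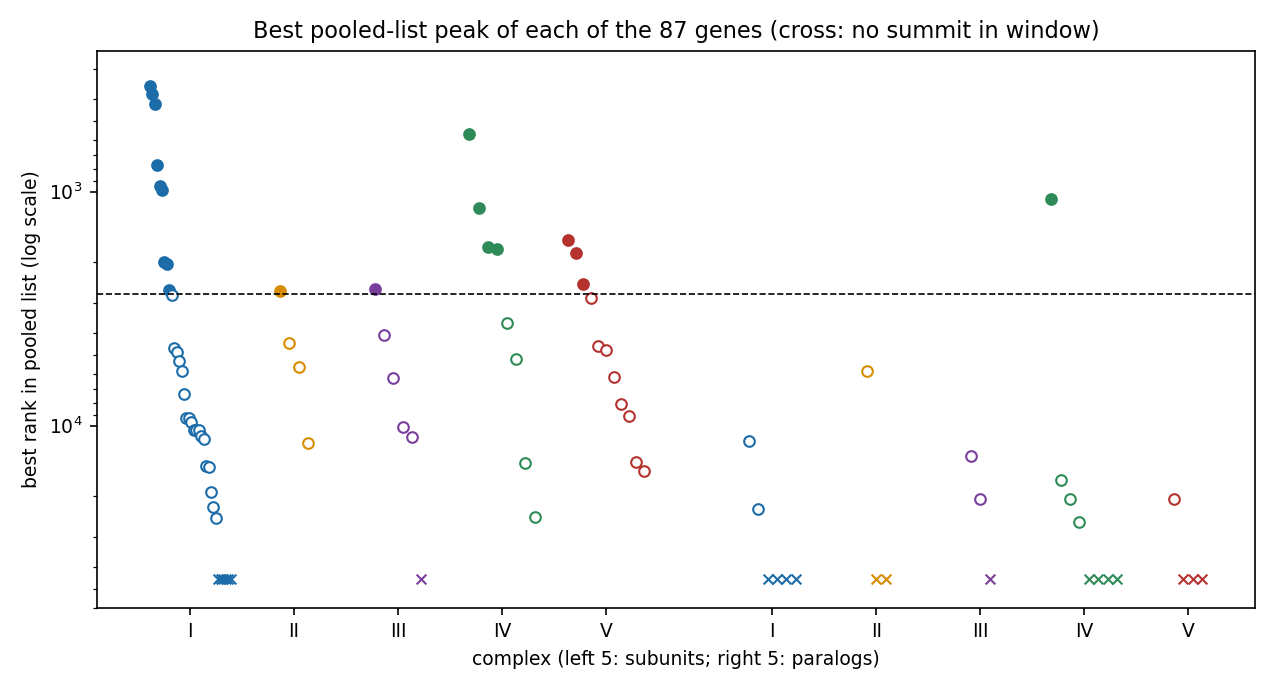
Best rank in the pooled list (y axis, log scale, 1 toward the top) of each of the 87 genes, with subunits of complexes I to V at the left and paralogs at the right. Filled circles are bound genes, open circles unbound ones, crosses genes with no summit in the window, and the dashed line is the length of the optimal list. In complex I the subunits run from 354 to 24752, and 1 paralog, at 1072, lies above the line.

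Each paralog was set beside the gene it is named after. Of the 24, 10 were unbound with a bound counterpart, 13 had neither bound, 1 was bound with an unbound counterpart, and no pair had both. All 24 counterparts, 21 distinct genes, had a summit of the pooled list, against 10 of the paralogs. ND-51L1, for example, had its best peak at 22702 and ND-51L2 had none, beside 423 for ND-51. UQCR-14L and ATPsynCF6L had none, beside 2595 for UQCR-14 and 1613 for ATPsynCF6. COX6AL had none and COX6AL2 ranked 20586, beside 1825 for levy, the gene for subunit 6A of complex IV. Where several paralogs share a counterpart, that gene enters more than 1 pair.

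Most of the bound summits lay just upstream of an annotated start of the gene. The offset of the best summit from the nearest own transcript start had a median of −102 bp (range −288 to 571) in the 19 members, against −129 bp over all bound protein-coding genes. A negative offset is upstream. In the members 15 of 19 (78.9%) were upstream and 18 (94.7%) within 500 bp, against 77.9% and 76.8% of all bound genes. For COX5A and ND-B22 the nearest start is an internal one, so their summits count as upstream but lie inside the gene. In bound protein-coding genes with a window of up to 3000 bp, which are closer in size, the median was −128 bp, with 92.1% upstream and 91.9% within 500 bp. The members' share within 500 bp was thus close to that of other short bound genes. Of the 19 summits 10 were intergenic, 6 in a 5′ UTR and 3 in an intron. In the replicates' own lists the median offsets of the members were −67, −115 and −87 bp.

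**Figure D4:**
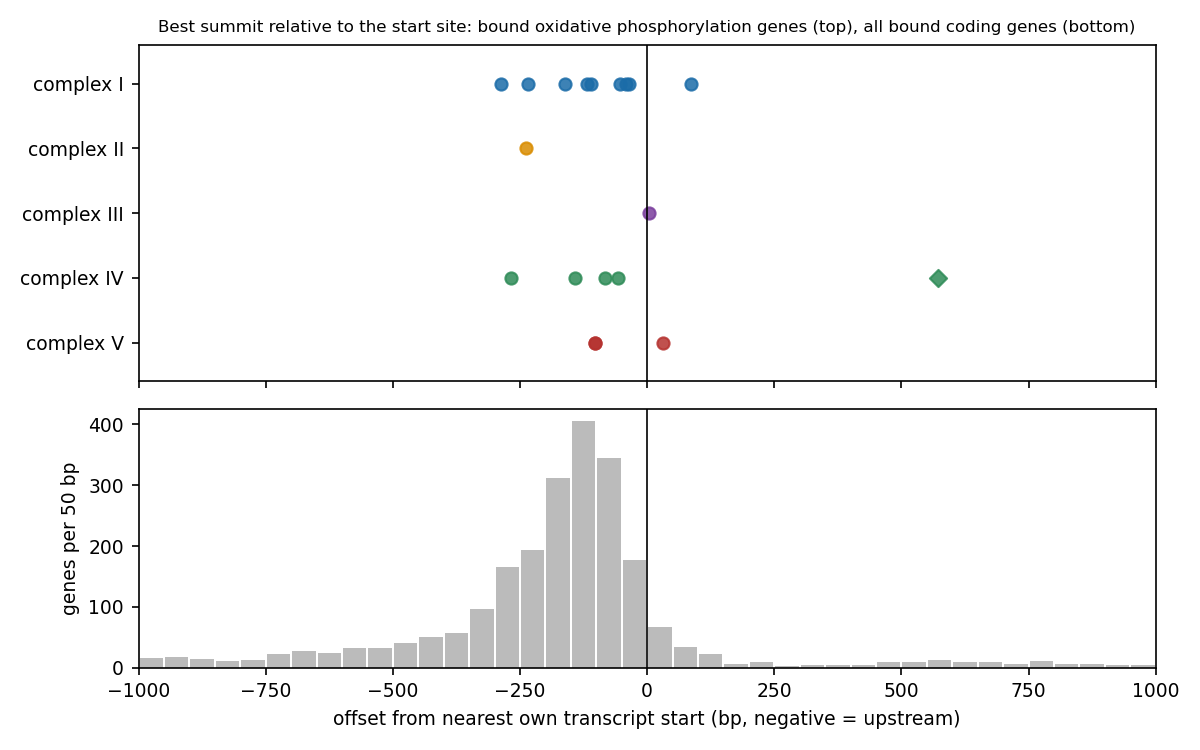
Distance of the best optimal summit from the nearest own transcript start (x axis, bp, negative upstream) for the 19 bound members by complex (top; diamond, the paralog COX7AL2) and the number of all bound protein-coding genes per 50 bp (bottom). The members lie between −288 and 87 bp except COX7AL2 at 571 bp, and the medians are −102 bp for members and −129 bp for all bound genes.

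Many of these summits cannot be given to 1 gene. In 16 of 19 members the summit also lay in the window of another protein-coding gene, and in 12 (63.2%) it lay between the starts of a divergent pair, against 45% of all bound genes and 65.5% of those with short windows. The member's own start was nearer in 13, another gene's in 5, and ND-MNLL tied with CG45089. Those nearer to another start were ND-MWFE, COX5B, ND-42, COX7B and SdhC.

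The arrangement of each gene toward its neighbour was counted beside binding. An opposite-strand start within 1 kb upstream was present in 40 of 63 subunits (63.5%) and 4 of 24 paralogs (16.7%). It was present in 44 of the 87 members (50.6%), against 36.2% of all protein-coding genes. Subunits so arranged were bound in 14 of 40 cases (35%, interval 22.1 to 50.5), against 33.4% of all such genes. These genes are of all lengths. With a window of up to 3000 bp, 14 of 32 such subunits (43.8%) were bound, against 25.6% of all such genes. Subunits without such a neighbour were bound in 4 of 23 cases (17.4%, interval 6.98 to 37.1), against 11.9% of all such genes. The 2 intervals overlap widely, and the difference between them was not tested. The part of this arrangement in the subunits' share was not tested.

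Short sequences were searched on both strands as exact letters, in the bases within 50 bp of each best summit. TAATTA, the core bound by many homeodomains, was found at 2 of 19 member summits (10.5%), those of ND-24 and COX7AL2, against 10.8% of all optimal summits. GAGAG, bound by GAGA factor, was found at 1, that of UQCR-14, against 8.31%. TATCGATA (the DRE), GGTCACAC (part of a core promoter motif), CACGTG (an E-box) and TGCGCA (part of the site of the factor ewg) were found at none of the 19, against 2.77%, 0.656%, 0.656% and 1.82% of all optimal summits. The A/T share was 65.1 ± 9.74% (SD, 19 summits) in members and 66.7 ± 8.68% over all optimal summits. With 19 summits, these shares do not separate the members from the rest of the list.

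The longer runs printed above add 1 match. In the ND-51 stretch TAATTA stands at bases 182 to 187, counted from 1 at the left end, beyond the summit at base 121 and toward ND-51. The ATPsynC run is the least A/T-rich of those shown, at 46.5%, and SdhC the most, at 73.3%.

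Promoters, taken from 250 bp before to 50 bp after the gene start, were searched in the same way. TAATTA was present in 7 of 18 bound subunits (38.9%), 9 of 45 unbound subunits (20%) and 5 of 24 paralogs (20.8%), against 20.5% of all protein-coding promoters. GGTCACAC was present in 6 of 18 bound subunits (33.3%), 9 of 45 unbound subunits (20%) and 1 of 24 paralogs (4.17%), against 7.7% of all. GAGAG was present in 2 of 18 (11.1%), 8 of 45 (17.8%) and 10 of 24 (41.7%) of these, in the same order, against 29.8% of all. TATCGATA was present in 2 of 18 bound subunits (11.1%), 7 of 45 unbound subunits (15.6%) and none of the 24 paralogs, against 9.36% of all. CACGTG was in none of the 18, in 2 of 45 (4.44%) and in 2 of 24 (8.33%), against 4.23% of all, and TGCGCA in 1 (5.56%), 4 (8.89%) and 1 (4.17%), against 6.97% of all. The mean A/T share was 65.9% in promoters of bound subunits, 64.9% in unbound subunits and 64.2% in paralogs, against 60.9% in all protein-coding promoters. Its part in the motif shares was not tested. These counts are small, and a match is a description of letters.

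Other genes of the pathway, listed by role, were bound in 15 of 42 cases (35.7%), against 19.7% of all protein-coding genes. A summit within 500 bp of a start was present in 12 of the 42, against 15.1% of all protein-coding genes. Subunits and electron carriers outside the naming rule were bound in 6 of 9 cases. They include RFeSP, the Rieske iron-sulfur protein of complex III, at rank 1846, cype of complex IV at 1435, and levy at 1825. Levy had replicate ranks of 8794, 1884 and 1252. The cytochrome c genes Cyt-c-d and Cyt-c-p ranked 245 and 370, but their summits lay 376 and 895 bp downstream of a start. Cyt-c1, ox and sun were unbound.

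Enzymes of the citrate cycle and pyruvate dehydrogenase were bound in 8 of 16 cases (50%), against 19.7% of all protein-coding genes. Of the 16, 6 had a summit within 500 bp of a start, against 15.1% of all protein-coding genes. Idh3g, for a subunit of isocitrate dehydrogenase, ranked 300, with 219, 387 and 330 in the replicates. Fum1 ranked 354 through the peak it shares with ND-ASHI, mAcon1 (aconitase) 820 and Pdhb 961. The citrate synthase gene kdn ranked 1321 through a summit 1402 bp downstream of a start, while its divergent neighbour ND-B16.6 had no summit.

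Assembly factors were bound in 1 of 5 cases (20%), near the 19.7% of all protein-coding genes. CIA30, which helps to assemble complex I, ranked 68 with a score of 485, and 61, 103 and 57 in the replicates, higher than any of the 87 members. The 5 genes for transport of nucleotides, phosphate and other solutes across the mitochondrial membranes were all unbound, the best-ranked being porin at 5452. The 7 genes for regulators and mitochondrial transcription, such as ewg, TFAM and PolrMT, were also unbound, the best-ranked being PolrMT at 4005. Lists of 5 and 7 genes are too small to be told apart from the share of all protein-coding genes.

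By chromosome arm, the members were bound in 5 of 16 cases on 2L, against 21% of all protein-coding genes of that arm, and in 1 of 17 on 2R, that of ND-MWFE, against 20.5%. On 3L the members were bound in 3 of 20 cases, against 19.2%, and on 3R in 6 of 19, against 18.9%. On chromosome 4 neither of 2 members was bound, against 12.5%, and on X 4 of 13 were, against 19.3%. The share of all protein-coding genes lay inside the members' Wilson interval on each of these arms, including 2R (1.05 to 27%).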

How the data were processed

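Peaks were called by the authors in each replicate and on the pooled replicates, with a control alignment, per the deposited notes. The aligner and the caller are not named in any source used. Only the dm6 lists were analysed. Each deposited peak carries the authors' score and a −log10 q, which is not used in the text. No read counts are given, so depth is unknown.

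Genes came from Ensembl release 115 (BDGP 6.54) and sequences from the RefSeq Release 6 genome, whose arm lengths exceed every peak end. Summits, the peak start plus the deposited summit offset, were assigned to gene windows with Python 3.11.15, and 95% Wilson intervals used scipy 1.17.1. Intervals run over genes and cover counting error only. The assignment was checked on simulated data.

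The members, lists and motifs were chosen with earlier results of these data known. Named in full were the 3 best-ranked members of each complex and the 3 bound and 3 unbound nearest the threshold. With 1 group, no test between groups was made. Grouping by core and accessory subunits, and the limit on window length, were added after the data were seen. The alternatives varied the window, the threshold, the overlap that counts as a match and the replicates used.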

Additional observations from a re-analysis of the deposited data

How the results depend on the processing

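No paired analysis was possible because the 3 replicates form 1 group. The share of protein-coding genes bound, 19.7% as reported, was 20.7% with any 1 bp of a peak in the window, 18.6% with 500 bp upstream, 21.6% with 2 kb and 15.1% for summits within 500 bp of a start; under these the bound members numbered 18 to 22, beside 19. With the optimal list reduced to its higher-scoring 50%, optimal peaks matched in all 3 replicates, and the pooled list taken to 2 times the optimal length, the share was 11.5%, 13% and 30.8%. The bound members numbered 9, 11 and 30 and the bound subunits 8, 10 and 29 (18 as reported). Members within 500 bp of their own start, 18 as reported, numbered 8 and 10 under the first and second of these. With replicate lists of 50% of that length and of 2 times that length, members matched in all 3 replicates, 11 as reported, numbered 7 and 17, and the mean per replicate, 16 as reported, was 9 and 28.7. Keeping the optimal peaks matched in both remaining replicates, which is stricter by construction, gave 14.3% to 15.3% of protein-coding genes, 11 to 15 members, 10 to 14 subunits and 10 to 14 members within 500 bp. Without replicate 3 the members numbered 11, and without replicate 2 they numbered 12. The members' share was below that of all genes in 4 of these 10 settings: 10.3% against 11.5%, 12.6% against 13%, 13.8% against 14.3% and 12.6% against 14.3%. The subunits' share was above it in all 10, at 12.7% against 11.5% in the closest. The subunit counts under each setting were added after the data were seen. The median offset stayed between −102 and −111 bp in the alternatives run. Depth is unknown, so an unbound gene is one without a peak above the threshold, and its lack of binding is not shown.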
